A study of Mus musculus with 16 samples.

Results

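The carbonic anhydrases were followed through livers and liver tumours of mice treated with the carcinogen diethylnitrosamine (DEN) and kept on a diet high in fructose or on one of cornstarch. The genes were taken by symbol from the deposited table of 47069 genes: Car1, Car2, Car3, Car4, Car5a, Car8, Car9, Car12, Car13 and Car14, 10 members in all, beside which the table held 6 other genes of the family. mRNA was sequenced in 16 libraries of 6 groups. They were tumours at 9 months under fructose (3) and cornstarch (2), liver at 9 months under fructose (3) and cornstarch (3), and liver at 5 months under fructose (2) and cornstarch (3). All 6 groups, the cornstarch ones included, had received DEN, so no comparison is with untreated liver. The labels gave neither strain, sex nor DEN dose. Nor did they tie libraries to single mice, and p-values therefore reflect only the variation among these samples, some of which may be technical. The members were chosen by symbol, with the measured level of Car3 by diet in 5-month livers already known.

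Carbonic anhydrases are zinc enzymes that interconvert carbon dioxide with bicarbonate and a proton. The forms differ in where they sit: Car1, Car2, Car3, Car7 and Car13 are cytosolic, Car5a and Car5b are mitochondrial, and Car4, Car9, Car12 and Car14 are held at the cell surface. In liver, the mitochondrial form supplies bicarbonate to the carboxylation steps that open the urea cycle and gluconeogenesis. Car3 is an abundant cytosolic protein of muscle, fat and liver with low catalytic activity, and Car8 lacks the enzymatic activity and binds the inositol trisphosphate receptor.

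Depth ranged from 11232461 to 38377674 reads per library. A pair of 5-month livers, fructose replicate 1 and cornstarch replicate 1, expressed Xist (12936 and 10883 normalised counts) and nearly no Y-linked genes, and are called the XX livers. Xist also stood at 226 in 9-month cornstarch liver replicate 3, against at most 25.8 in the remaining libraries. That liver expressed Y-linked genes too, at a sum of 1593, and the source of its Xist was not tested. Alb, the albumin gene, and the other hepatocyte identity genes were expressed throughout, with a summed level of 2400277 to 6446667 normalised counts in tumours and 1766672 to 3297897 in livers. Ckm, the muscle creatine kinase gene, was at 0 in all 16 libraries, and the 10 skeletal muscle markers summed to 40.5 to 149. The tissue is bulk, so fewer cells of a type and less RNA per cell cannot be told apart.

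The promoters of 5 of the 10 members were in the RefSeq table used here (build GRCm38.p6, 250 bases before to 50 after the start). 3 are shown 5′ to 3′ on the gene's strand: Car5a and Car14, which were lower in tumours, and Car9, the family's known hypoxia target, which stayed low. Capitals mark the core of the hypoxia response element, ACGTG, which is found here on the opposite strand and so reads CACGT.
Car5a promoter, chr8:121944863-121945162, minus strand: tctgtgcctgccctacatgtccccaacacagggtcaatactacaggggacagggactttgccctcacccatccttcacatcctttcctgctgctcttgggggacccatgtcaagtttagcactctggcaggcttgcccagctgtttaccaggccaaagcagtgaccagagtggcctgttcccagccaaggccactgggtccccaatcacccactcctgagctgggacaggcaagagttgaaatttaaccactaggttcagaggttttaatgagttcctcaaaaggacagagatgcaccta
Car14 promoter, chr3:95904636-95904935, minus strand: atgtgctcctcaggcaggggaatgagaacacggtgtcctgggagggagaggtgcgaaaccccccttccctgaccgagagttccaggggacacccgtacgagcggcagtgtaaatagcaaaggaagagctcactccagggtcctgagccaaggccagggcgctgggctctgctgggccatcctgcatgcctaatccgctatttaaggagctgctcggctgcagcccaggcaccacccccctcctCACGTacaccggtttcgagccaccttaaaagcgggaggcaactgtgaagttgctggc
Car9 promoter, chr4:43506776-43507075, plus strand: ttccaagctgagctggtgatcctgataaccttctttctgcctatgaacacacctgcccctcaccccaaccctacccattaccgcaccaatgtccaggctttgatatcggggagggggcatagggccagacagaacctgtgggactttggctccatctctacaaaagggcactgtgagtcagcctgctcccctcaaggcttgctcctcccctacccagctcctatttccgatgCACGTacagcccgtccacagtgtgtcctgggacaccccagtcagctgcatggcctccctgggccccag
The letters lie at bases 244 to 248 in Car14 and 233 to 237 in Car9, counted from the 5′ end, and are absent from this window in Car5a. Both strands were searched, and ACGTG, which also lies within the E-box CACGTG, was found in 19.6% of the 32851 promoters of this length. None of the 3 windows held TATAAA (13.6% of promoters) or CAAAGTCCA, an HNF4A-type motif (0.475%). The windows of Car4 and Car12 were searched too and are not shown. Car4 held ACGTG on the opposite strand at bases 253 to 257 and TATAAA at 293 to 298, and Car12 held no listed motif.

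Per kilobase of exon, Car3 was the most abundant member, with a mean of 5800.0 normalised counts per kilobase over the 16 libraries. Car5a followed at 583, Car8 at 271 and Car14 at 148. Car2 averaged 52.4, Car1 34.2, Car4 13.8 and Car13 6.14 per kilobase, Car9 1.69 and Car12 0.0624. Taking the length of the longest transcript in place of all exons gave 9897 for Car3 and 625 for Car5a and kept the order of the 10. The places of Car2 and Car4 rested on fructose tumour replicate 3: without it, a comparison chosen after the data were seen, Car2 averaged 35.1 per kilobase, beside 36.1 for Car1, and Car4 averaged 2.46, beside 6.14 for Car13. Among the 6 other family genes, Car5b, the second mitochondrial form, averaged 5.99 per kilobase and Car7, a cytosolic form known from brain, 5.03. Car5b lay between 14.8 and 68.9 normalised counts and Car7 between 7.29 and 29.8, and neither passed the threshold in any comparison. Car6, Car10, Car11 and Car15 each averaged under 10 normalised counts.

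**Figure D1:**
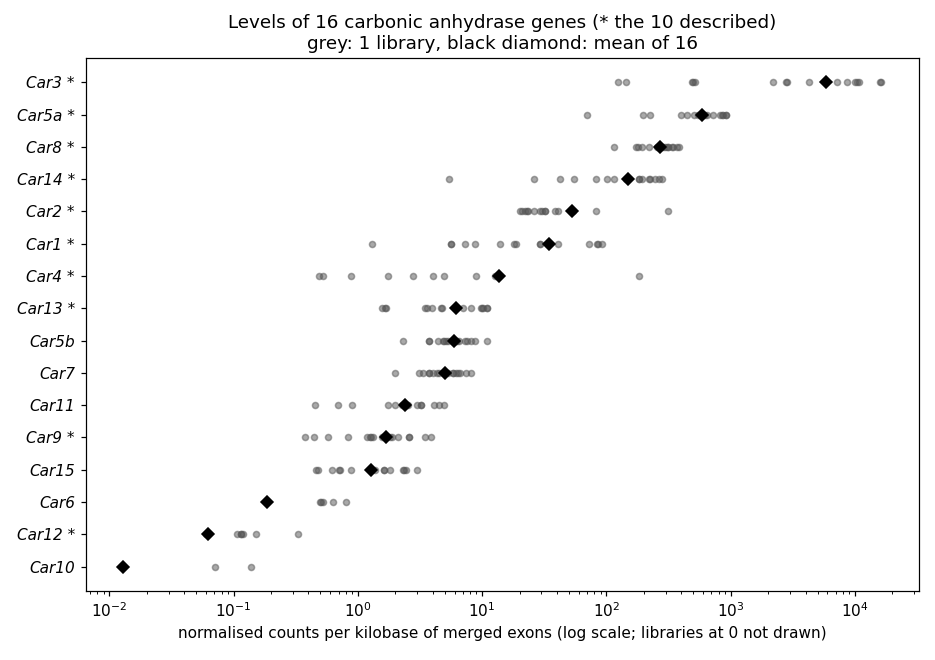
Levels of the 16 carbonic anhydrase genes in normalised counts per kilobase of merged exons on a log axis, with each library above 0 as a grey point and the mean of 16 libraries as a black diamond. Car3 has the highest mean, 5800.0, and the widest gap to the next, Car5a at 583, and its lowest libraries reach down to the levels of Car8 and Car14.

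Car3 made up 13.4% to 93.1% of the summed per-kilobase level of the 10 members. In the 5-month fructose livers Car5a led instead, at a group mean of 532 per kilobase against 312 for Car3. In fructose tumour replicate 2, Car5a (42.8%) and Car8 (33.8%) also exceeded Car3. The Car3 share was 62.4%, 15.4% and 32.5% in fructose tumours, and 87.7% and 83.1% in cornstarch tumours. At 9 months it was 91.6%, 68.1% and 78.2% in fructose livers and 87.4%, 93.1% and 91.5% in cornstarch livers. At 5 months it was 30.1% and 13.4% in fructose livers and 60.4%, 87.0% and 84.8% in cornstarch livers. The lowest shares were thus in fructose tumours and 5-month fructose livers, below all cornstarch libraries except the XX cornstarch liver, whose 60.4% lay just under the 62.4% of a fructose tumour.

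**Figure D2:**
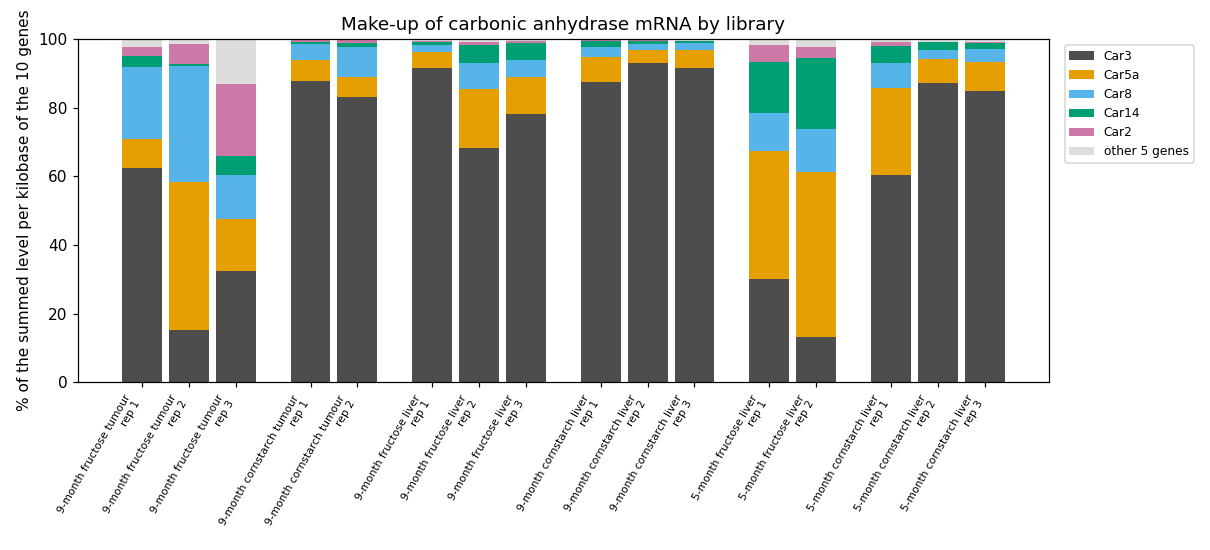
Share of Car3, Car5a, Car8, Car14, Car2 and the other 5 members in the summed per-kilobase level of the 10, in percent, as a stacked bar for each of the 16 libraries. Car3 takes 83.1% or more in both cornstarch tumours and all 9-month cornstarch livers, and 13.4% and 30.1% in the 5-month fructose livers.

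Car3 (ENSMUSG00000027559, GRCm38 chromosome 3, 14863512 to 14872523, plus strand) stood at 1466, 410.2 and 1391 normalised counts in the 9-month fructose tumours and 20425 and 8022 in the 9-month cornstarch tumours. At 9 months, liver levels were 31086, 8069 and 12250.0 under fructose and 29636, 46069 and 45829.5 under cornstarch. At 5 months they were 1429 and 358 under fructose and 6229.7, 28418 and 24785 under cornstarch. The diets did not overlap in tumours or in 5-month livers, while at 9 months a fructose liver exceeded the lowest cornstarch liver. Among 5-month cornstarch livers the XX library was the lowest, and among 5-month fructose livers the XX library was the higher.

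Car1 (ENSMUSG00000027556, chromosome 3, 14766216 to 14808368, minus strand), the carbonic anhydrase of red cells and colon, followed Car3 at a far lower level. It stood at 6.96, 1.62 and 6.96 normalised counts in fructose tumours and 36.2 and 10.9 in cornstarch tumours. Liver levels at 9 months were 42.7, 23.5 and 22.7 under fructose and 51.1, 90.7 and 105 under cornstarch, and in 5-month livers 17.5 and 9.14 under fructose and 36.3, 107 and 116 under cornstarch. Each fructose library was below each cornstarch library in tumours (so for 12.4% of genes), in 9-month livers (10.9%) and in 5-month livers (25.1%). Over the 16 libraries the log2 levels of Car1 and Car3 had a Pearson r of 0.89, and of 0.93 after subtracting group means, given as a description since the libraries share groups and depth.

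Car13, Car1, Car3 and Car2 lie in that order in 1 stretch of chromosome 3, with 103213, 55143 and 13749 bases between neighbours. Car2, the nearest neighbour of Car3, had an r of -0.42 with Car3 over the 16 libraries, and of 0.18 after subtracting group means. For Car13 and Car3 the r was -0.56, and 0.17 after subtracting group means, so the negative values lay between group means.

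**Figure D3:**
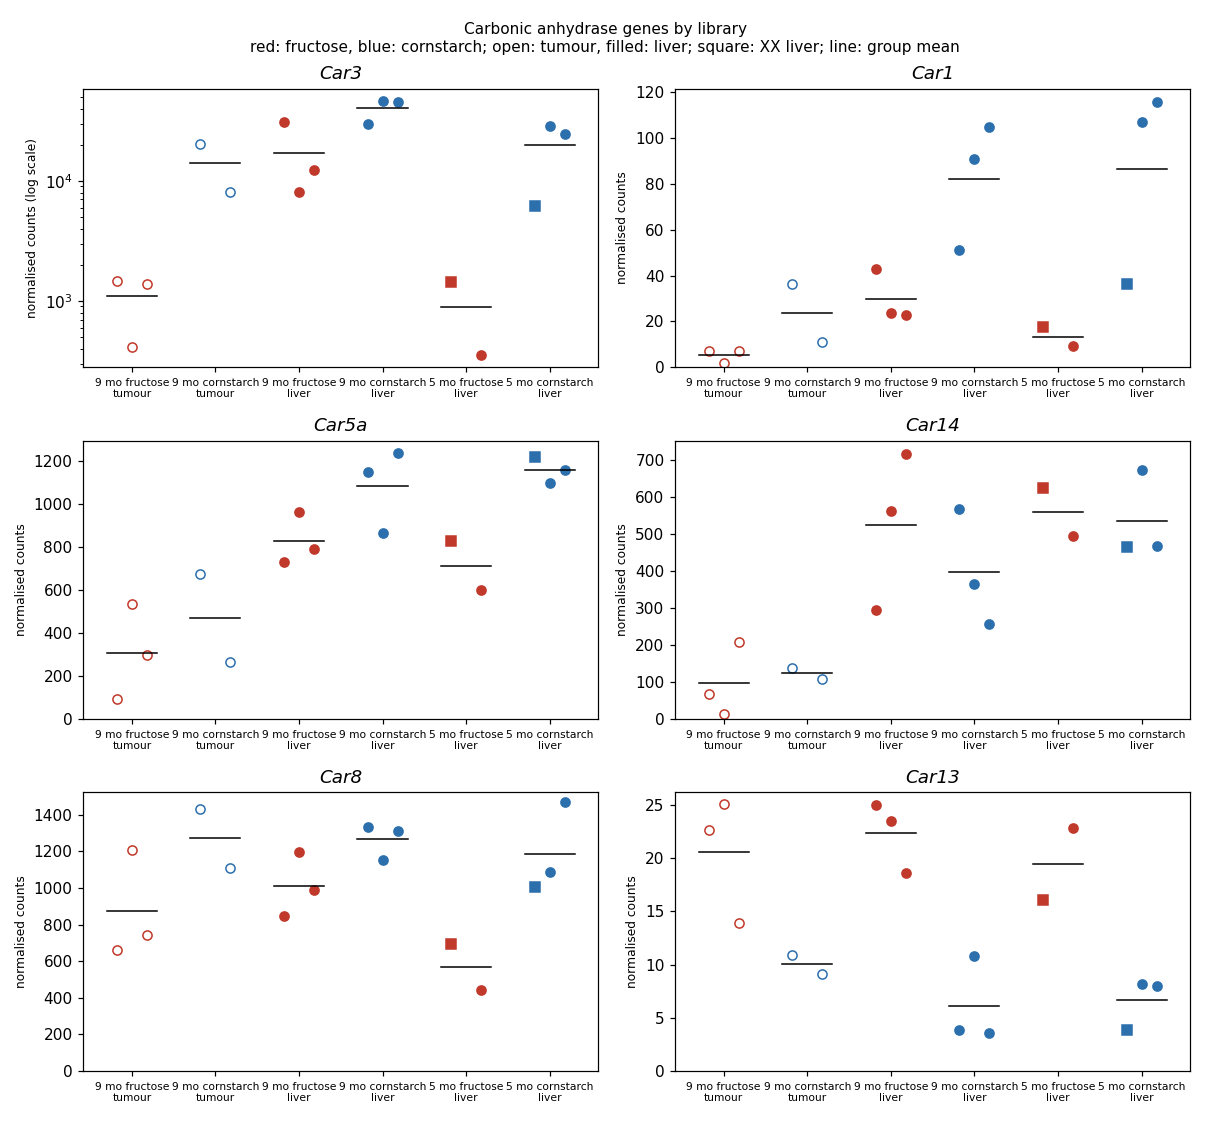
Normalised counts of 6 members in each library by group, with Car3 on a log axis, fructose in red, cornstarch in blue, tumours open, livers filled, XX livers as squares and a line at the group mean. Car3 and Car1 are lower under fructose in both the tumours and the 5-month livers, Car5a and Car14 are lower in tumours than in livers, and Car13 is higher under fructose in each pair of groups.

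The comparison of tumours with liver at 9 months, averaged over the diets, asked which members differed in the neoplastic tissue. Of the 8 members that passed the filter on low values, 4 fell in tumours and 0 rose: Car1, Car3, Car5a and Car14. Over all genes 23.8% passed, 10.5% lower and 13.4% higher. Car3 fell by 2.79 on the log2 scale (SE 0.45, limma adjusted p = 0.00208), a 6.91-fold change, and Car1 by 2.17 (SE 0.42, limma adjusted p = 0.00539). Both passed with each of the 11 libraries left out in turn. Within each diet the tumours lay below the livers without overlap for Car1, Car3, Car5a and Car14, as for 17% of genes under fructose and 19.3% under cornstarch.

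Car5a (ENSMUSG00000025317, chromosome 8, 121916126 to 121944904, minus strand), the mitochondrial form of hepatocytes, stood at 93.0, 533 and 298 normalised counts in fructose tumours and 672 and 264 in cornstarch tumours. The 9-month livers held 728, 959.7 and 789.9 under fructose and 1148, 865 and 1236 under cornstarch. Each tumour was below each 9-month liver, as was the case for 5.02% of genes. Its log2 difference came to -1.54 (limma adjusted p = 0.0208, SE 0.40).

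Car14 (ENSMUSG00000038526, chromosome 3, 95897768 to 95904691, minus strand), a transmembrane form found on the hepatocyte surface in mice, stood at 66.9, 13.8 and 209 normalised counts in fructose tumours and 139 and 107 in cornstarch tumours. The 9-month livers held 294, 561 and 717 under fructose and 567, 364 and 257 under cornstarch. Each tumour was again below each 9-month liver. On the log2 scale the difference was -2.33 (limma adjusted p = 0.0157, SE 0.57). Both calls were lost without cornstarch tumour replicate 2, where the log2 fold change was -1.20 for Car5a (limma adjusted p = 0.115) and -2.24 for Car14 (limma adjusted p = 0.0716). On the opposite strand, exons of BC048644 cover 23.5% of the exon bases of Car5a and those of Aph1a cover 17.5% of Car14. Aph1a averaged 861 normalised counts, and whether the counting used strand was not given.

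Car8 (ENSMUSG00000041261, chromosome 4, 8143362 to 8239041, minus strand) did not pass in this comparison. It stood at 662, 1210.3 and 745 normalised counts in fructose tumours and 1432 and 1112 in cornstarch tumours, against 850.0, 1196 and 987 in fructose livers and 1333, 1156 and 1310.2 in cornstarch livers. The groups overlapped, at a log2 difference of -0.13 (SE 0.17 and limma adjusted p = 0.633). For Car13 the log2 fold change was 0.32 (SE 0.33) and for Car2 0.51 (SE 0.55), each with overlapping groups.

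Markers of other kinds differed beside these members. Of 14 male-biased liver genes 10 fell in tumours and 0 rose, and of 12 periportal genes 5 fell and 0 rose. The pericentral list had 1 fall in 12, near the 10.5% of all genes. Its median log2 fold change was -1.28, beside -1.15 for the periportal list. It summed to 12632, 24354 and 261744 in fructose tumours, against 147365 to 229904 in fructose livers. In cornstarch tumours the sums were 39382 and 133524, against 126036 to 261815 in cornstarch livers. Mitochondrial genes took 2.54% to 4.29% of the reads of a tumour and 4.68% to 7.73% of those of a 9-month liver. The part of these shifts in the falls of Car1, Car3, Car5a and Car14 was not tested.

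**Figure D4:**
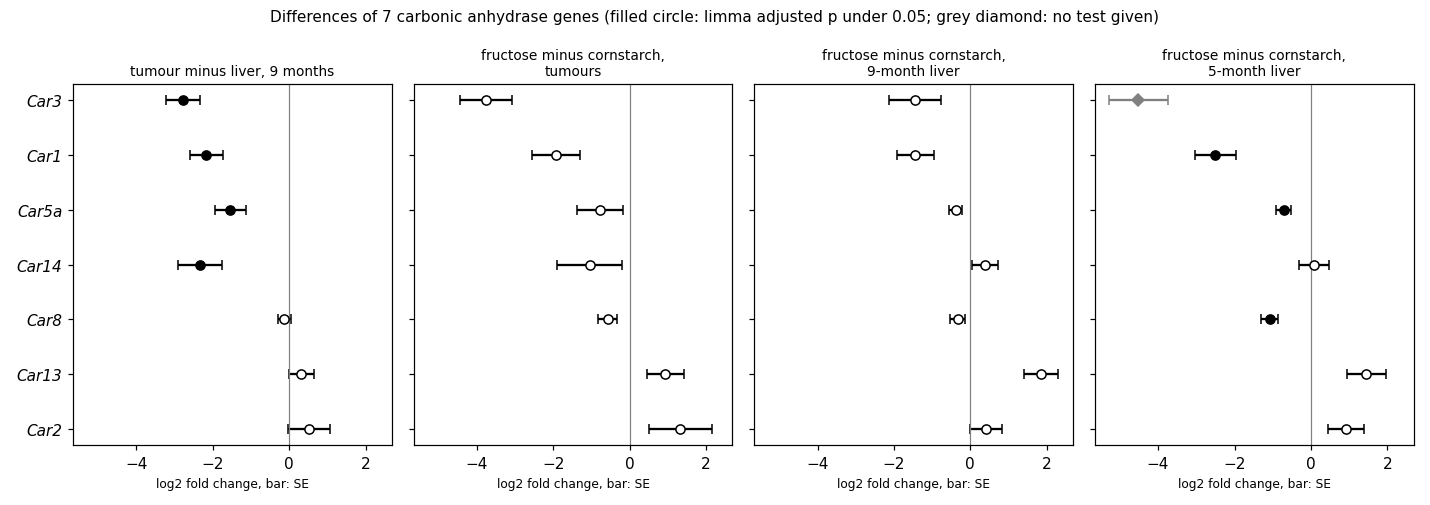
Log2 fold changes of 7 carbonic anhydrase genes with bars of 1 SE, for tumour against liver and for fructose against cornstarch in tumours, 9-month livers and 5-month livers, with filled circles past the limma threshold. Car3, Car1, Car14 and Car5a pass in tumours against liver and Car1, Car8 and Car5a under fructose at 5 months, where Car3 is drawn as a grey diamond without a test.

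The comparison of diets in 5-month livers asked which members differed by diet at the earlier age. Car3 was among the known results of these data when the family was chosen, so its log2 fold change of -4.51 (SE 0.76) is given as a description and is not counted. Of the other 7 members that passed the filter, 3 were lower under fructose and 0 higher: Car1, Car8 and Car5a. Over all genes 14.8% passed, 4.48% lower and 10.3% higher.

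Car1 fell by 2.50 on the log2 scale (SE 0.53, limma adjusted p = 0.0116). Car8 stood at 694 and 445 normalised counts under fructose and 1005, 1088 and 1471 under cornstarch, or -1.07 on the log2 scale (SE 0.22, limma adjusted p = 0.0108). Car5a stood at 827 and 599 under fructose and 1218, 1096 and 1154 under cornstarch, or -0.71 on the log2 scale (SE 0.19, limma adjusted p = 0.0325). For each of these genes the 2 fructose livers were below the 3 cornstarch livers, as was so for 25.1% of genes. Car14 did not pass, at 624 and 493 under fructose and 465, 674 and 467 under cornstarch.

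These calls rested on few libraries. Without fructose replicate 2 the log2 fold changes were -2.07 for Car1 (limma adjusted p = 0.136), -0.75 for Car8 (0.147) and -0.48 for Car5a (0.320), and that for Car3 was -3.52. Without the 2 XX livers they were -3.47 for Car1, -1.50 for Car8, -0.91 for Car5a and -6.21 for Car3. That left 1 fructose liver and 2 cornstarch livers of this age. The call for Car5a was also lost without any single cornstarch liver of this age, at limma adjusted p-values of 0.0694, 0.0700 and 0.0804. With all 16 libraries in 1 fit it was lost at 0.439. Of the 13 alternatives other than leaving out 1 library, 11 kept the call for Car5a.

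Markers of blood cells moved with diet at this age. The 12 neutrophil and granulocyte precursor genes all passed as higher, beside 10.3% of all genes. Their summed level was 63587 and 93355 in fructose livers, against 132 to 1023 in cornstarch livers. Of 10 red blood cell genes tested 8 rose, summing to 15698 and 20993 in fructose livers and 3077 to 4321 in cornstarch livers. Car1, a red cell gene, was lower under fructose. The hepatocyte identity list summed to 3005237 and 3297897 under fructose and 2041087 to 3100550 under cornstarch, with 2 of 11 genes higher and 0 lower. Mitochondrial genes took 2.93% and 3.49% of the reads of the fructose livers and 5.00% to 5.83% of those of the cornstarch livers. The part of these shifts in the member values was not tested.

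In 9-month livers 0 of the 8 members passed between the diets, beside 2.54% of all genes. That background of 363 genes was 1, 5 and 0 without fructose replicates 1, 2 and 3, 11 without cornstarch replicate 3, and 0 with only the compared groups in the fit. An unadjusted p under 0.05 was reached by 4 members (Car1, Car4, Car5a and Car13) and by 20.5% of all genes, and Car4 and Car13 had entered the test chiefly through the fructose livers. edgeR called 0 members and 387 genes, and DESeq2 called 2 members, Car1 and Car13, and 969 genes. The log2 difference was -1.45 for Car3 (SE 0.68, limma adjusted p = 0.263). For Car1 it was -1.44 (SE 0.48), with an adjusted p of 0.134 by limma and 0.0374 by DESeq2. It was -0.38 for Car5a (SE 0.17), -0.34 for Car8 (SE 0.20), 0.38 for Car14 (SE 0.35) and 0.41 for Car2 (SE 0.41). The male-biased liver genes summed to 33264 to 104629.5 in fructose livers and 140613 to 192496 in cornstarch livers, with 0 of 14 past the threshold. Of the 12 macrophage and Kupffer cell markers 7 were higher under fructose and 0 lower. The part of either list in these values was not tested.

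In tumours 0 of the 8 members passed between the diets by limma, beside 0% of all genes, of which 1178 had an unadjusted p under 0.05. Car3 did not pass, at a log2 difference of -3.76 (SE 0.67, limma adjusted p = 0.182), though 3 members (Car1, Car3 and Car8) had an unadjusted p under 0.05, as did 8.12% of all genes. The 3 fructose tumours were each below both cornstarch tumours, as for 12.4% of genes. DESeq2 called Car3 (adjusted p = 7.19e-06) and edgeR did not (0.232). Over the alternatives the limma adjusted p for Car3 reached 0.787 at most and 0.0839 at least when a library was left out. Male-biased liver genes summed to 12762 to 58921 in fructose tumours and to 104116 and 145100 in cornstarch tumours, with 0 of 14 past the threshold, and their part in the level of Car3 was not tested. For Car1 the log2 difference was -1.94 (SE 0.63, limma adjusted p = 0.506) and for Car8 -0.58 (SE 0.25).

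The diet effect itself was compared between settings. Between tumour and liver, 0 members passed, with 424 of all genes at an unadjusted p under 0.05 and 0% past the threshold. The difference for Car3 was -2.31 (SE 0.90, unadjusted p = 0.0268, limma adjusted p = 1). Between 9-month and 5-month livers 0 members passed, beside 0.698% of all genes, with a difference of 0.74 for Car8 (SE 0.30, limma adjusted p = 0.377). Whether diet acted more on a member in one setting than in another is therefore not shown by these libraries.

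Between 9-month and 5-month livers, over both diets, 2.77% of all genes passed (0.768% higher). Apart from Car3, the other 7 of the 8 members tested did not pass. Car3 was higher at 9 months, by 2.81 on the log2 scale (SE 0.51). Its level in 5-month livers was known beforehand, so this is a description without a p-value and is not counted. The Car3 group means were 17135 at 9 months and 893 at 5 months under fructose. Under cornstarch they were 40511 and 19811. The 3 cornstarch livers of 9 months each exceeded the 3 of 5 months, as for 9.34% of genes, and the 3 fructose livers of 9 months exceeded both of 5 months, as for 17.5%. The log2 difference for Car3 was 2.87 without 9-month fructose replicate 3. It was 2.96 without the XX livers and 2.31 without 5-month fructose replicate 2, each of which left 1 fructose liver of 5 months. For Car8 the log2 difference was 0.48 (SE 0.15, limma adjusted p = 0.109). Of the neutrophil and granulocyte precursor genes 10 of 12 were lower at 9 months, and their part in this was not tested.

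Car13 (ENSMUSG00000027555, chromosome 3, 14641727 to 14663002, plus strand), a cytosolic form, was low and differed by diet in the direction opposite to Car1 and Car3. It stood at 22.6, 25.1 and 13.9 normalised counts in fructose tumours and 10.9 and 9.11 in cornstarch tumours. In 9-month livers it was 25.0, 23.5 and 18.6 under fructose and 3.86, 10.8 and 3.57 under cornstarch, and in 5-month livers 16.0 and 22.8 under fructose and 3.82, 8.22 and 7.99 under cornstarch. All 8 fructose libraries were above all 8 cornstarch libraries, which was so for 0.843% of 14836 genes. Within pairs of groups the same held for 11.1% of genes in tumours, 12.8% in 9-month livers and 27.6% in 5-month livers.

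No single comparison called Car13 in limma. Under fructose the log2 difference was 1.86 in 9-month livers (SE 0.45, limma adjusted p = 0.0579), 1.45 in 5-month livers (SE 0.50, limma adjusted p = 0.0769) and 0.93 in tumours (SE 0.48, limma adjusted p = 0.652). In 9-month livers the call was made with TMM scaling (0.0499), upper quartile scaling (0.0310), a pseudocount of 5 (0.0441), DESeq2 (0.0216), all 16 libraries in 1 fit (0.0399), and without 9-month cornstarch replicate 2 (0.0310). In 5-month livers it was made with array weights (0.0382) and without 9-month cornstarch replicate 2 (0.0433), which enters that comparison only through the shared spread. Car13 passed the filter in livers chiefly through the fructose livers. The 12 macrophage and Kupffer cell markers summed to 17929 to 25972 in 9-month fructose livers and 3956 to 10319 in 9-month cornstarch livers. At 5 months they summed to 23755 and 27726 under fructose and 9422 to 15931 under cornstarch, and in tumours to 5795 to 15222 under fructose and 5221 and 5751 under cornstarch. Their part in the level of Car13 was not tested.

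Car2 (ENSMUSG00000027562, chromosome 3, 14886273 to 14900770, plus strand) is the high-activity cytosolic form. Car4 (ENSMUSG00000000805, chromosome 11, 84957786 to 84966044, plus strand) is anchored to the cell surface by a lipid. Both were highest in 1 library, fructose tumour replicate 3. Car2 stood at 53.9, 131 and 758 normalised counts in fructose tumours and 77.4 and 62.9 in cornstarch tumours. In 9-month livers it was 125, 77.3 and 73.4 under fructose and 55.9, 56.9 and 94.1 under cornstarch, and in 5-month livers 198 and 70.8 under fructose and 98.3, 50.3 and 49.3 under cornstarch. Without that tumour the Car2 log2 fold change for diet in tumours was 0.27, against 1.32 with it (SE 0.82).

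Car4 stood at 1.74, 0 and 360.2 in fructose tumours and at 0 in both cornstarch tumours. The 9-month livers held 25.0, 7.84 and 5.44 under fructose and 9.64, 0 and 0 under cornstarch, and in 5-month livers 17.5 and 3.43 under fructose and 0.954, 1.03 and 0 under cornstarch. A library with 0 reads does not show that the mRNA was absent, and no fold change is given where a group held at most 3 reads in all. In livers only fructose libraries reached 10, so Car4 entered the liver tests through the group in which it was high. Among the 9-month libraries only fructose liver replicate 1 and fructose tumour replicate 3 did. Car4 is thus among the 8 members of the tests with tumours through fructose libraries alone. For diet in 9-month livers the log2 fold change was 2.37 (SE 0.99, limma adjusted p = 0.211).

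Fructose tumour replicate 3 had 59 genes at over 4 times the next highest library, against 0 to 13 in each of the other 15. Its Glul, a pericentral and Wnt-responsive gene, was at 115419 normalised counts, and its Axin2, a Wnt target, at 1329, each the highest of the 16 libraries. The link between these and Car2 or Car4 was not tested.

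**Figure D5:**
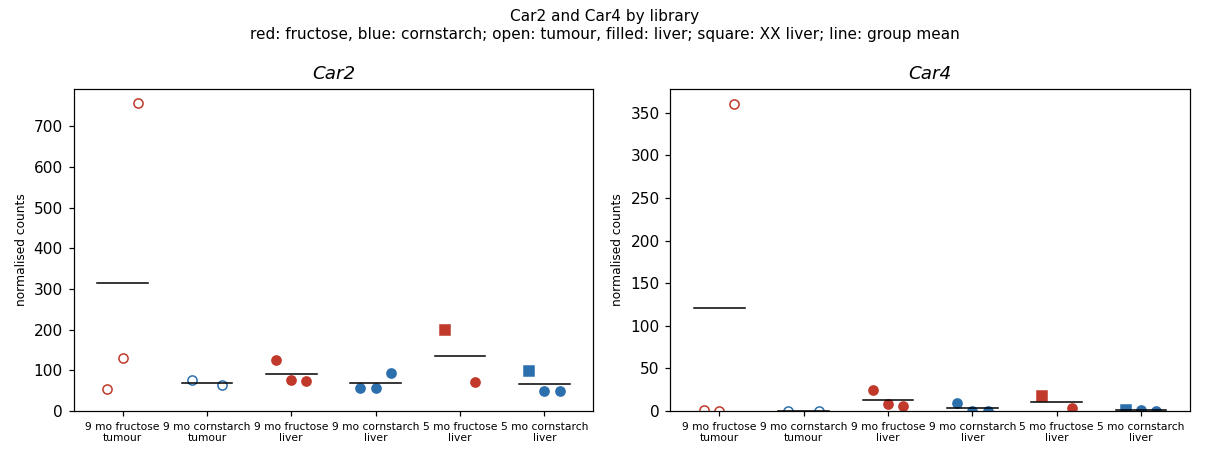
Normalised counts of Car2 and Car4 in each library by group, with fructose in red, cornstarch in blue, tumours open, livers filled and XX livers as squares. One fructose tumour stands at 758 for Car2 and 360.2 for Car4, above the other 15 libraries in each panel.

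Car9 and Car12, surface forms that are raised in many tumours, were low in all libraries. Car9 (ENSMUSG00000028463, chromosome 4, 43506966 to 43513729, plus strand) stood at 4.35, 4.85 and 0.870 normalised counts in fructose tumours and 5.89 and 2.73 in cornstarch tumours, and at 1.03 to 8.96 in livers. Its tumours lay within the range of the livers except for the 0.870. Car12 (ENSMUSG00000032373, chromosome 9, 66713686 to 66766845, plus strand) had 9 reads in all, was at 0 in 9 libraries and reached at most 2.52. Neither passed the filter, so no test was made of either. By diet, Car9 stood at 4.16, 8.96 and 5.89 in 9-month fructose livers and 1.93, 3.07 and 3.57 in 9-month cornstarch livers, and at 2.92 and 8.00 in 5-month fructose livers and 2.86, 1.03 and 1.33 in 5-month cornstarch livers. The fructose livers lay above the cornstarch livers at each age, as did 12.8% of tested genes at 9 months and 27.6% at 5 months. The reads were 4, 8 and 13 against 2, 2 and 3 at 9 months, and 2 and 7 against 3, 1 and 1 at 5 months. At 5 months the gap of 2.92 over 2.86 thus came from 2 reads against 3, parted only by the scaling for depth. Car12 lay at 0.809 to 2.52 in tumours and 0 to 0.453 in 9-month livers, without overlap, as did 7.96% of tested genes, on 1 to 3 reads a tumour and at most 1 read a liver.

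Around the family, other genes of the pathway were counted. Of 14 tested transport genes for bicarbonate, protons and lactate, 2 passed at 5 months, both higher under fructose, a share near the 10.3% of all genes: Slc16a3, a lactate exporter, was 12.0-fold and Slc4a1, the red cell anion exchanger, 74.4-fold higher. None of the 14 passed in the other 6 comparisons. The list's median log2 fold change at 5 months was 0.22, against -0.01 over all genes tested. Of 9 bicarbonate-using enzymes 3 fell under fructose at 5 months, beside 4.48% of all genes. They were Mccc1, Pccb and Mccc2, carboxylase subunits of amino acid breakdown, lower by 0.57, 0.77 and 0.47 on the log2 scale. The list median was -0.57. In tumours 4 of the 9 fell and 1 rose, beside 10.5% and 13.4% of all genes. Pcca fell by 1.08 on the log2 scale. Cad, the first enzyme of pyrimidine synthesis, rose by 1.26 (SE 0.23, limma adjusted p = 0.00363).

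Of 20 hypoxia targets 6 rose and 2 fell under fructose at 5 months, beside 10.3% and 4.48% of all genes, at a list median of 0.38, where Pfkfb4, a regulator of glycolysis, was 7.15-fold higher and Hk2, a hexokinase, 3.94-fold. In tumours 2 rose and 2 fell, shares near the 13.4% and 10.5% of all genes: Pfkfb4 rose by 1.07 on the log2 scale and Ero1l, an oxidase of protein folding, by 0.59, while Mxi1 had a log2 fold change of -0.62 and Bnip3 one of -0.76. Between ages 1 fell, Ero1l. Car9, itself a hypoxia target, stayed under 10 normalised counts in each library.

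The genes whose levels ran most like the members over the 16 libraries were ranked among 10527 by Pearson's r on log2 values, as a description. For Car5a they were Ugt3a2, Aldh4a1, Pdk2 and Urah, each at an r of 0.96. For Car3 they were Hars2 (0.93), Gtpbp8 (0.93), Sult2a8 (0.91) and Ugt2b36 (0.90). For Car14 they were Ankrd33b (0.93), Aldh16a1 (0.91), Sirt1 (0.91) and Extl1 (0.91), for Car8 Rida, Tdp2, Mettl22 and Srbd1 (0.88 each), and for Car2 Wdr3, Cbr1, Fth1 and Rtn4 (0.85 to 0.86). The libraries share 6 groups and their depth. After subtracting group means, the 4 genes for Car5a kept an r of 0.90 to 0.93 and the 4 for Car3 one of 0.62 to 0.77.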

How the data were processed

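Libraries were made with a TruSeq mRNA kit, as the protocols of the labels state. The authors deposited 1 table of normalised counts, a signal scale of reads divided by 1 factor per library. STAR, RSEM, DESeq2, Trim Galore, FastQC and GRCm38 are named per the submitters' processing notes, without versions or roles. Whether counting used strand is not given in the sources used here. Whole reads were recovered within 0.01 for 100% of values. Names, positions and exon lengths came from GENCODE M21, which held 98.9% of the IDs.

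limma 3.58.1 (R 4.3.3) was run on log2(value + 1), estimating group means and a variance trend. The liver fit used 11 libraries and the tumour fit the 11 of 9 months. A gene entered a test where 2 or more of its libraries held 10 or more (14317 and 14503 genes), with Benjamini-Hochberg adjustment and a threshold of 0.05. edgeR 4.0.16 (quasi-likelihood) and DESeq2 1.42.0 were alternatives on the recovered reads, beside other scalings, pseudocounts, filters, library sets and array weights. Where leaving out 1 library or the 2 XX livers left a group with 1, that sample was assumed to vary as the remaining groups do.

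The members and gene lists were chosen with earlier results of these data known. Named genes were the members, up to 4 genes past the threshold per pathway list, and the 4 most alike genes for members averaging at least 50. Genes named outside this rule were chosen after their values were seen. The pipeline was tested on simulated data.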

Additional observations from a re-analysis of the deposited data

How the results depend on the processing

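No paired analysis was possible because the labels do not tie tumours to livers of the same mouse. They carry no replicate numbers either, and those used here follow the order of the sample titles within each group. Members past the threshold, 0 for diet in 9-month livers, numbered 1 with TMM scaling, upper quartile scaling, a pseudocount of 5 or all 16 libraries in 1 fit, 2 with DESeq2, and 0 to 1 with each library left out. Upper quartile scaling moved the median of all genes there by 0.101. For diet in tumours the count was 0, and 1 with DESeq2. With each library left out the counts were 0 to 5 for diet at 5 months (4 with all, Car3 included), 2 to 4 for tumour against liver (4 with all) and 0 to 1 for age (1 with all). The 1 for age is Car3, given as a description. The libraries that decided the other counts are named with the results.

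Signs turned for values that had not passed the threshold. Car14 for diet at 5 months was -0.0156 with array weights, -0.185 without the XX livers and -0.0948 to 0.251 with a library left out. For age, Car13 was 0.00854 with TMM, 0.0886 with upper quartile and 0.0181 with quantile scaling, 0.0279 with a pseudocount of 5, 0.00528 with edgeR and -0.221 to 0.120 with a library left out. Car2 was 0.374 without the XX livers and -0.524 to 0.212 with a library left out, and Car5a -0.0604 to 0.172. For tumour against liver, Car2 was -0.0116 to 0.935 with a library left out. In the difference of the diet effect between ages, Car2 was -1.24 to 0.232. Between tumour and liver, Car1 was -1.32 to 0.321, Car2 -0.142 to 1.75 (0.91 with all) and Car5a -1.06 to 0.304. The causes were not tested. Depth limits Car9, Car12, Car4 and Car13. It also limits Car1, which had 8, 2 and 8 reads in fructose tumours and 12 and 8 in 5-month fructose livers.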
